A study of Caenorhabditis elegans with 2 samples.

Results

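LIN-26 is a zinc-finger protein of Caenorhabditis elegans known for its role in epidermal fate, and its GFP fusion was mapped by chromatin immunoprecipitation and sequencing (ChIP-seq) in whole young adults. The peaks described here are those at divergent promoters, where promoter windows of protein-coding genes on opposite strands overlap. Members were peaks whose summit lay in such windows on both strands, each window running from 1000 bp upstream to 200 bp downstream of an annotated 5′ end. Summits within 500 bp of a tRNA, snoRNA or snRNA gene were left out. By this rule 192 of the 3187 nuclear peaks of the list built from both replicates were members. Another 891 summits lay in a promoter window of 1 strand only, 1461 lay outside promoter windows and 643 lay near a short RNA gene.

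The study had 1 group with 2 biological replicates and no comparison of conditions. The worms were of strain RW12178, in which st12178 places GFP and a loxP-flanked unc-119(+) at lin-26 by CRISPR, in an unc-119(tm4063) III background. They were collected at 64 hours after synchronisation as starved L1 larvae, and sonication gave chromatin fragments of 200 to 800 bp. The description names an antibody against GFP, whereas the antibody label names lin-26. Every sample carries the fusion, whole animals mix all tissues, and the peaks cannot be assigned to the epidermis or any other cell type. The data are peak lists that give a summit and the peak caller's signal over a control for each peak, so the read depth is unknown. Signal values rank peaks within a list and are not scaled between lists.

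Genes that lie head to head share the stretch of DNA between their 5′ ends, and a protein bound there sits upstream of both. In the compact genome of C. elegans many genes also sit in operons or close behind a neighbour on the same strand, and the transcripts of most genes are trimmed at their 5′ ends by trans-splicing. An annotated 5′ end is therefore often the splice site of the leader and not the start of transcription.

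The strongest member lay between K01G5.10, annotated as a hydrolase of the haloacid dehalogenase type, and tasp-1, the homolog of the protease taspase. The windows of 4 strong members are shown as examples of the sequence under the summits. Each is 100 bases of the ce11 genome centred on the summit, written 5′ to 3′ from the plus strand, with matches to the searched motifs in capitals. Pairs are named with the minus-strand gene first.
K01G5.10/tasp-1 (chrIII:10759202-10759301, plus strand): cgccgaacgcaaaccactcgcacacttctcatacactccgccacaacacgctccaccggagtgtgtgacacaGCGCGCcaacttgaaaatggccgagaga
drr-2/set-16 (chrIII:13643693-13643792, plus strand): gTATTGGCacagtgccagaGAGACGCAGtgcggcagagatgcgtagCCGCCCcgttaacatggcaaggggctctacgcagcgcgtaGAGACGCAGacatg
nhl-2/tag-340 (chrIII:4899876-4899975, plus strand): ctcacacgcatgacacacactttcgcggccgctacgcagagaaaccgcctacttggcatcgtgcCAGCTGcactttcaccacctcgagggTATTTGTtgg
egrh-2/lep-2 (chrIV:991396-991495, plus strand): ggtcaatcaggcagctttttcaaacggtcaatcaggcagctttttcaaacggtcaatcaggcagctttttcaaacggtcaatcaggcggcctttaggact
The capitals in the K01G5.10/tasp-1 window mark GCGCGC, and the same window holds the run CGCTCCAC described further on. The capitals in the drr-2/set-16 window mark 2 copies of GAGACGCAG, the EOR-1-like motif, a KLF/Sp match (GGGCGG on the other strand) and a stretch with a PHA-4-like match that holds CCAAT on the minus strand. In the nhl-2/tag-340 window they mark an E-box, CAGCTG, and a PHA-4-like match. The egrh-2/lep-2 window holds no searched motif and is a tandem repeat with a period of 25 bases, at which 68 of 75 bases equal the base 1 period on.

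The 12 strongest members all lay in gaps between genes that point away from each other, and all 12 were found in each replicate's own thresholded list and in the conservative list. At K01G5.10/tasp-1 the signal was 751 in the list of both replicates, 300 in the ranked list of replicate 1 and 456 in that of replicate 2. The summit lay 55 bp upstream of tasp-1 and 730 bp upstream of K01G5.10. It ranked 13th of all nuclear peaks and had the highest signal of any member.

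Genes of the translation machinery and of its control were among the 12. The peak between rpl-15, which encodes a protein of the large ribosomal subunit, and K11H12.8, a homolog of growth hormone-inducible transmembrane protein, had a signal of 362, with 118 in replicate 1 and 253 in replicate 2. A snoRNA gene, K11H12.13, lies 563 bp from that summit, just beyond the margin of the rule. The peak between rpl-18A, another large subunit gene, and Y17G9B.5 had a signal of 262, with 100.4 and 180 in the replicates. The gene larp-1 encodes a La-related RNA-binding protein, and its peak towards wip-1 had a signal of 260 (93.0 and 161). Ataxin-2, encoded by atx-2, is an RNA-binding protein too. Its peak towards ecps-1 had a signal of 247 (72.4 and 172), the lowest of the 12.

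Other members among the 12 lay at chromatin and small-RNA genes or under non-coding RNA genes. The peak between drr-2, which encodes an RNA recognition motif protein, and set-16, a histone methyltransferase gene, lay 173 bp from each 5′ end and had a signal of 305, with 133 and 174 in the replicates. The peak between nrde-2, a factor of nuclear RNA interference, and atad-3, a mitochondrial ATPase gene, had a signal of 324 (148 and 174). At nhl-2, which encodes a TRIM-NHL cofactor of microRNAs, and tag-340 the signal was 288 (77.8 and 191). That summit lay inside a non-coding RNA gene, F26F4.14. The summit between E04F6.6 and pcrg-1, a homolog of the Parkin coregulated gene, with a signal of 341 (135 and 209), also lay inside a non-coding RNA gene, mrpr-1. The rule left out only tRNA, snoRNA and snRNA genes, so peaks at genes classed as ncRNA stayed among the members. Whether these peaks belong to the non-coding RNA genes or to the gene pairs was not tested.

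The remaining 3 of the 12 were at genes of protein handling and regulation. The peak between supr-1 and dnj-28, a J domain co-chaperone gene, had a signal of 328 (115.5 and 228). The peak between aka-1 and ubc-6, a ubiquitin-conjugating enzyme gene, had a signal of 312 (121 and 199). The egrh-2/lep-2 peak lay between a zinc-finger gene and a makorin ubiquitin ligase gene and had a signal of 309 (98.6 and 181). Its summit was within 25 bp of the upstream edge of the egrh-2 window. In each of the 12 the value of replicate 2 was higher than that of replicate 1, but the lists are not scaled to each other.

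The density of summits asked whether peaks favour divergent promoters over the space these occupy. Windows of both strands held 192 of the 2544 summits outside short RNA margins, or 7.55% (95% Wilson interval 6.58 to 8.64), and covered 2.32% of the bases. This was a 3.25-fold excess (2.84 to 3.72) with p = 2.8e-44 by a two-sided exact binomial test. Windows of 1 strand held 35.0% of the summits on 23.8% of the bases, a fold of 1.47 (1.40 to 1.55; exact p = 4.2e-37). Among the 1083 summits in any promoter window, 17.7% were members, against 8.89% of the promoter bases, a fold of 2.00 (1.75 to 2.26; two-sided exact binomial p = 7.0e-20). The tests count each base once, though a base in windows of both strands belongs to promoters on 2 strands. Distance to a 5′ end was not matched between the kinds of window. The tests also treat summits as independent. With 1 summit kept for each run of summits less than 500 bp apart, the fold over the genome was 3.25 (2.82 to 3.75; exact p = 9.1e-41).

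The difference held both between genes and within them. Outside protein-coding genes, windows of both strands held 131 summits, or 102.4 per Mb (86.6 to 121), against 40.8 per Mb (37.5 to 44.4) in windows of 1 strand. The ratio was 2.51 (two-sided exact binomial p = 2.1e-17). Inside genes the 61 summits in windows of both strands made 59.7 per Mb (46.6 to 76.3), against 35.1 per Mb (32.3 to 38.2), a ratio of 1.70 (two-sided exact binomial p = 2.5e-04). Sequence outside promoter windows held 22.1 summits per Mb between genes and 18.8 per Mb within them. This split was chosen after the values were seen.

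**Figure D1:**
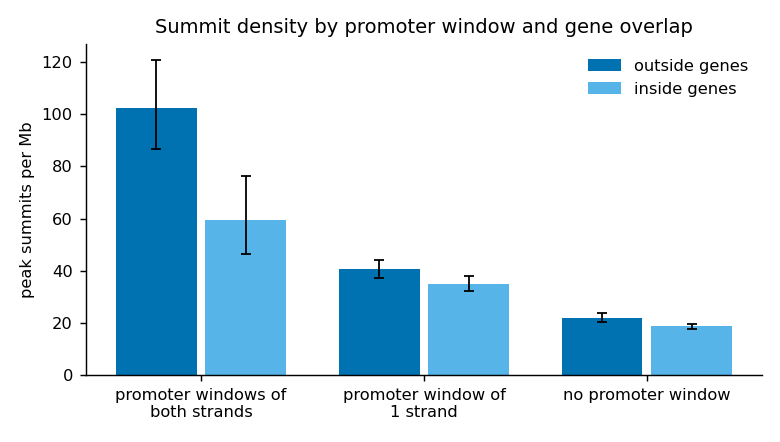
Peak summits per Mb (vertical axis) in promoter windows of both strands, of 1 strand and in neither, for bases outside (dark) and inside (light) protein-coding genes. Bars are counts divided by bases and error lines are 95% intervals for counting error; the dark bar of both-strand windows, at 102.4 per Mb, stands above all the others.

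The label of divergent promoters was checked against the arrangement of the genes. Of the 192 members, 127 (66.1%, 59.2 to 72.5) lay in a gap between adjacent head-to-head genes. Another 61 (31.8%) lay inside an annotated protein-coding gene, of which 35 were in coding sequence, 19 in introns, 6 in 5′ UTRs and 1 in a 3′ UTR. The other 4 lay in gaps between genes of the same orientation, with windows reaching in from farther genes. They were at his-46/B0035.21, F54E12.2/his-56, ttc-5/moag-4 and F49H6.12/F49H6.5. About 1 member in 3 was therefore at a divergent promoter by windows but not in the space between head-to-head neighbours. The median signal was 111 in head-to-head gaps and 107 inside genes.

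Members were set among all gaps between adjacent protein-coding genes. Of the 2495 head-to-head gaps of up to 2000 bp, 152 held a summit outside short RNA margins (6.09%, 5.22 to 7.10). The share was 2.84% (2.48 to 3.25) for the 7291 tandem gaps and 2.55% (1.96 to 3.30) for the 2161 tail-to-tail gaps of that size. Summits were 83.0, 46.2 and 49.7 per Mb of gap in the same order. Head-to-head gaps of 251 to 500 bp held a summit in 7.69% (5.72 to 10.3) of cases, against 3.55% (2.68 to 4.67) of tandem and 3.70% (2.35 to 5.77) of tail-to-tail gaps. In gaps of 1 to 250 bp the shares were 2.67% (1.46 to 4.85), 1.98% and 1.59%, with overlapping intervals, and the densities 163, 161 and 156 summits per Mb. In gaps of 501 to 1000 bp the shares were 6.29% (4.82 to 8.17), 2.28% and 2.55%. In gaps over 2000 bp they were 11.1%, 9.83% and 9.82%, with overlapping intervals. The shares were not tested against each other. A member itself lay in 121 of the 2495 gaps, or 4.85%.

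**Figure D2:**
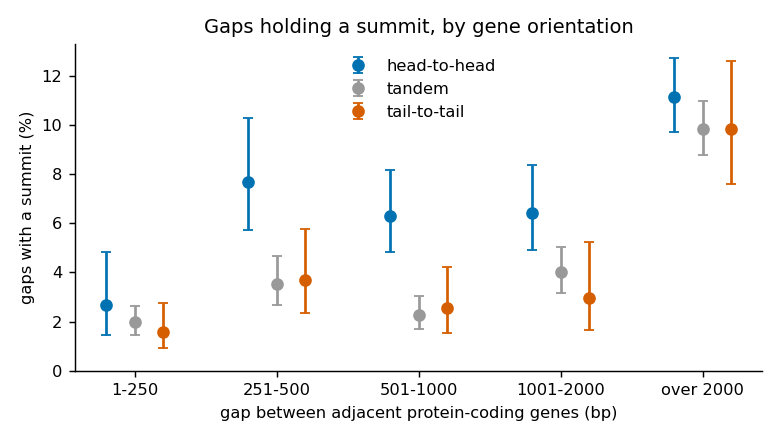
Share of gaps between adjacent protein-coding genes that hold at least 1 summit (vertical axis, %), by gap size (horizontal axis, bp) and by orientation of the genes. Points are shares and lines are 95% Wilson intervals. The head-to-head interval stands apart from both others at 501 to 1000 bp and overlaps the tail-to-tail interval at 251 to 500 bp. It overlaps both others at 1001 to 2000 bp and in the shortest and longest gaps.

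Most members were upstream of both genes and close to 1 of them. Of the 192, 158 (82.3%) had the summit upstream of both nearest 5′ ends, 33 lay downstream of 1 of them and 1 of both. The nearer 5′ end was at a median of 152 bp (quartiles 77.8 and 271), and the farther at 488 bp (293 and 724). The nearest 5′ ends of the strands were 600 bp apart at the median (389.5 and 911). Only 34 summits (17.7%) were within 250 bp of both ends, against 137 (71.4%, 64.6 to 77.3) within 250 bp of the nearer. Single-strand summits were within 250 bp of their 5′ end in 43.8% of cases, but members had the nearer of a pair of ends to choose from, so these shares are not alike in kind. The nearer gene was on the plus strand at 98 members and on the minus strand at 92, and 2 summits lay equally far from both. Of the 127 in head-to-head gaps, 51 (40.2%, 32.0 to 48.9) lay in the middle when the stretch between the 5′ ends was cut in 3 equal parts. The called peak covered neither 5′ end at 92 members, 1 at 88 and both at 12.

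**Figure D3:**
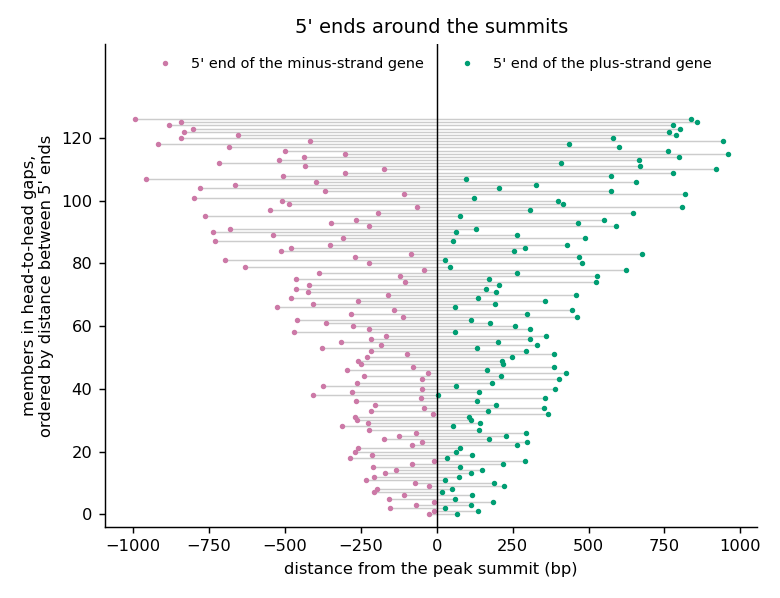
Distance from the summit (horizontal axis, bp) to the nearest 5′ end on the minus strand (left points) and on the plus strand (right points) for the 127 members in head-to-head gaps, ordered from the closest to the farthest pair of 5′ ends. Each line is 1 member; in many the summit, at 0, sits near one of the ends and not midway.

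Signal values of members were ordinary for the list. Their median was 111 (quartiles 91.5 and 147; lowest 4.58, highest 751), against 107 for single-strand promoter peaks, 102 for peaks outside promoter windows, 214 for peaks near short RNA genes and 112 for all nuclear peaks. Members made up 1 of 37 peaks outside short RNA margins among ranks 1 to 100, 8 of 62 (12.9%, 6.69 to 23.4) in ranks 101 to 300 and 75 of 1129 (6.64%, 5.33 to 8.25) in ranks 2001 to 3187. Near the edge of the windows, 5 members lay within 25 bp inside it, with signals of 97.5 to 309, and 18 single-strand summits lay within 25 bp outside it, with signals of 5.63 to 331.

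The replicates supported members unevenly. A peak counted as found in a replicate when it overlapped a peak of that replicate's own thresholded list by at least 50% of the shorter. Of the 192 members, 43 (22.4%, 17.1 to 28.8) were found in both lists, beside 29.2% of all nuclear peaks. The share was 20.8% for single-strand promoter peaks, with an odds ratio of 1.10 (two-sided Fisher exact p = 0.63). At least 1 replicate's list held 119 members (62.0%, 54.9 to 68.5), beside 62.5% of all nuclear peaks, and neither list held 73. The conservative list held 138 members (71.9%, 65.1 to 77.8), beside 71.5% of all nuclear peaks. These shares of members were thus near or below those of the whole list.

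The lists differed in length, with 1191 nuclear peaks for replicate 1 and 2083 for replicate 2. Replicate 1 held 58 members (30.2%) and replicate 2 held 104 (54.2%). Members in head-to-head gaps were found in both lists in 33 of 127 cases (26.0%, 19.1 to 34.2), and members inside genes in 8 of 61 (13.1%, 6.80 to 23.8). That difference was not tested, and the intervals overlap. In the ranked lists before thresholding, 182 members had a peak in each replicate, and the signal was higher in replicate 2 at 160 of them. The median was 46.6 (36.8 to 62.4) in replicate 1 and 71.0 (55.8 to 96.7) in replicate 2. Across these 182 members the values had a Spearman correlation of 0.44, which is a description over peaks that share their libraries.

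**Figure D4:**
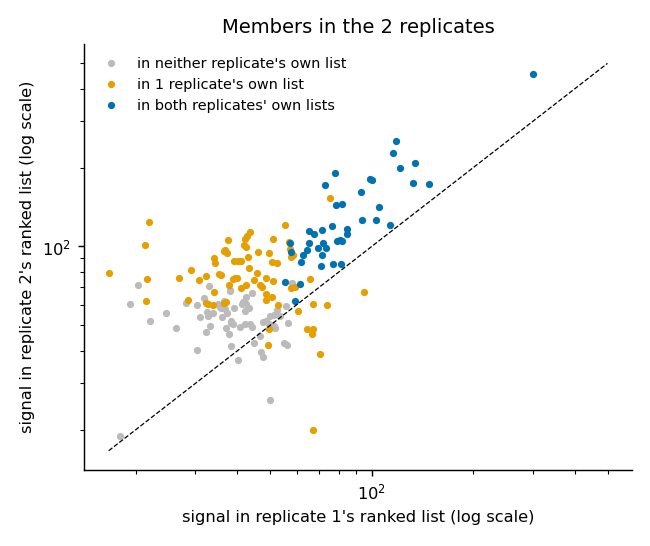
Signal in the ranked list of replicate 1 (horizontal, log scale) against replicate 2 (vertical, log scale) for the 182 members with a peak in both; the dashed line marks equal values, which lists of different scale need not follow. Blue points are found in both thresholded lists, orange in 1 and grey in neither; K01G5.10/tasp-1 stands alone at 300 and 456.

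Repeated sequence was more common among members found in both lists. In 28 members the 150 bp around the summit held a 31-base stretch present more than once in the genome, and 15 of these 28 (53.6%) were in both lists, against 28 of the other 164 (17.1%). The median signal was 161 with such a stretch and 108 without. How repeats enter the authors' alignment was not tested. In 6 members at least 50% of the window was repeated, among them egrh-2/lep-2 (55.8%), aka-1/ubc-6 (50.8%) and R11A5.6/pck-2 (73.3%), whose most frequent stretch occurs 507 times. The pair F44E5.4/F44E5.5 codes for heat shock proteins of the HSP70 family on both sides, with a signal of 232, and 8.3% of its 31-base stretches were repeated, at most 2 times. A window with no repeated stretch was found at 85.4% of members and 84.8% of single-strand promoter summits.

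Some promoters held more than 1 member. The 192 summits fell at 176 pairs of nearest genes, and 15 pairs had at least 2 summits. At atp-5, a gene of the mitochondrial ATP synthase, and lmtr-3 there were 3, with signals of 106, 97.8 and 7.01 the first of them 185 bp downstream of the 5′ end of atp-5. At ecps-1/atx-2 the second summit, with a signal of 92.6, lay 568 bp from the first and 193 bp from the 5′ end of ecps-1, so each gene had a summit near its own end. At mzt-1/enu-3.3 the signals were 134 and 78.6. At prp-19, which encodes a splicing factor, and K10D2.5 they were 202 and 4.58, with summits 201 bp apart. Of the 10 members with a signal below 50, 8 shared their pair with a stronger member and 8 were in neither replicate's list.

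The chromosomes differed in how densely their divergent promoters were occupied. Chromosome I had 53 members and 132 per Mb of both-strand window, III had 39 and 108, IV had 32 and 77.6, II had 29 and 70.2, and V had 37 and 62.8. The X chromosome had 2 members, at his-38/his-40 and trap-2/ile-2, or 16.03 per Mb, on 5.42% of the window bases. Single-strand summits on X were 32.3 per Mb of their windows, within the 25.65 to 54.1 of the autosomes. No test across chromosomes was made.

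Genes of protein synthesis and turnover were among those with a member. The gene lists go by the first letters of the symbols or by named symbols and are partial, so a count covers the listed genes and not every gene of a process. Of all 19973 protein-coding genes, 361 had a member in their window, which is 1.81%. Since 29.2% of genes (5826) have a window overlapping that of the other strand, the share among those was 6.20%. Among cytosolic ribosomal protein genes it was 12 of 78 (15.4%, 9.03 to 24.99), or 12 of the 50 with such a window (24.0%, 14.3 to 37.4). They included rpl-15, rpl-18A, rps-3A (signal 227, summit inside the non-coding RNA gene F56F3.10) and rps-19 (149.4). Among proteasome genes, whose products degrade ubiquitin-tagged proteins, it was 7 of 33 (21.2%, 10.7 to 37.8), led by pbs-1 (154), rpn-5 (133), pas-3 (119) and pas-7 (95.8). Of the 24 proteasome genes with such a window, 29.2% (14.9 to 49.2) had a member. A member found in both replicates' own lists lay at 4 of the ribosomal protein genes and at 0 of the proteasome genes. The gene lists were chosen with results of these data known, and a peak at a divergent promoter counts for both genes.

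Mitochondrial, folding and nuclear pore genes were also represented. Of the listed respiratory chain genes, 5 of 35 had a member (14.3%, 6.26 to 29.4), with cox-5B at 202, cox-6B at 171, atp-1 at 169 and atp-5 at 106. Outside the list, products of the respiratory chain are also annotated for nduc-2 (171, at the cox-6B summit), nduf-2.2 (124), C15H11.11 (106) and mev-1 (82.7), looked up after the values were seen. Heat shock and chaperonin genes had 7 of 61 (11.5%, 5.67 to 21.8). The listed genes, with hsp-, cct- or dnj- symbols, were led by dnj-28 (328), hsp-60 (203), dnj-13 (165) and the cytosolic chaperonin subunit gene cct-7 (146). The HSP70 pair F44E5.4/F44E5.5 (232) is outside the list. The hsp-60 summit lay towards Y22D7AL.10, annotated as the 10 kDa mitochondrial heat shock protein that works with HSP-60, so both parts of that chaperonin were at 1 promoter. Nuclear pore genes had 5 of 26 (19.2%, 8.51 to 37.9), led by npp-6 (229), with a median of 79.8 over the 5. At the npp-6 summit 49.2% of the 31-base stretches were repeated. Histone genes had 8 of 80 (95% interval 5.15 to 18.5%), with his-46 at 247 and his-56 at 228. Many of these are near-identical copies. Counted among genes with windows of both strands, the respiratory chain list had 23.8% (10.6 to 45.1), beside 6.20% of all such genes. Heat shock and chaperonin genes had 20.6% (10.3 to 36.8), nuclear pore genes 29.4% (13.3 to 53.1) and histone genes 12.3% (6.37 to 22.5) on that base. Members found in both replicates' own lists lay at 2 respiratory chain, 3 heat shock and chaperonin, 1 nuclear pore and 4 histone genes.

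Smaller counts, of 1 to 4 genes, came from other basic processes. The spliceosome list had 3 of 26 genes (prp-19, snr-2 and prp-31), the tRNA synthetases 3 of 32 (ears-2, aars-1 and tars-1) and mitochondrial ribosomal proteins 4 of 71, led by mrpl-17 at 154. None of these tRNA synthetase genes had a member found in both replicates' own lists. DNA replication and cell cycle genes had 4 of 54 (cdk-9, psf-1, cye-1 and rfc-4) and vesicle traffic genes 4 of 67, among them rab-7 and rab-5. Translation factors had 2 of 40, eef-1G at 119 and eef-1A.1 at 79.3. Ubiquitin conjugation had 2 of 50, ubc-6 at 312 and ubc-12 at 117. RNA polymerase and Mediator genes had 1 of 41, mdt-26 at 127.6. Germline genes had 3 of 51, mex-1 (176), htp-3 (107) and syp-3 (90.8). Counted among genes with windows of both strands, the shares of these lists ran from 5.88% to 20%, beside 6.20% of all such genes. RNA polymerase and Mediator genes had 5.88% (1.05 to 26.98), and translation factors and ubiquitin conjugation 9.09% each (2.53 to 27.8). Spliceosome genes had 15% (5.24 to 36.04) and tRNA synthetases 20% (7.05 to 45.2). Only the interval of the tRNA synthetases lay above 6.20%.

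For genes of the epidermis the lists left little to compare. None of the 156 collagen genes with col- symbols, whose products build the cuticle, had a member, and 46 of them have windows of both strands. A count of 0 of 46 allows a share of up to 6.52% when 3 counts are taken as its limit and 7.71% by the Wilson interval, so the 6.20% of all genes with such windows lies within it. Outside that list, the cuticle collagen gene dpy-13 had a member, towards zipt-2.2, with a signal of 86.4. So did T22D1.17, annotated with a cuticle collagen domain, with 131. Both were looked up after the values were seen. None of 13 epidermal transcription factor genes had one, and none of these has such a window. Of 20 listed genes of epithelial junctions and polarity, 1 has such a window and 0 had a member. Outside that list, par-5, which encodes a 14-3-3 protein, had a member towards M117.3 with a signal of 145. It too was looked up after the values were seen. Of the 16 listed developmental timing and molting genes, 2 have such a window and 1 had a member, lin-46 (145). That list is partial and does not hold lep-2, whose member had a signal of 309. Large gene families differed when counted among genes with windows of both strands, of which 6.20% had a member overall. Chemoreceptor genes had 1 member among 281 with windows of both strands, srh-2 with a signal of 14.9. C-type lectins had 0 of 82, which allows up to 3.66% by the limit of 3 counts and 4.48% by the Wilson interval. F-box and MATH genes had 3 of 121 (2.48%, 0.847 to 7.04). Nuclear hormone receptors had 2 of 45 (4.44%, 1.23 to 14.8), nhr-68 and nhr-47, and homeobox genes 1 of 11 (9.09%, 1.62 to 37.7), ceh-38.

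A run of 8 bases, CGCTCCAC, recurred under member summits. It was picked out after reading the windows of the strongest members, so the counts describe these peaks and carry no test. It stood on either strand within 75 bp of the summit at 12 of 192 members (6.25%, 3.61 to 10.6). It was in 1 of 384 windows of the same length 400 bp to each side (0.260%), 10 of 891 at single-strand promoter summits (1.12%, 0.611 to 2.05) and 23 of 2495 at the middle of head-to-head gaps (0.922%). It was also in 7 of 1461 windows at peaks outside promoters (0.479%) and 124 of 29314 stretches of 150 bp upstream of annotated 5′ ends (0.423%). Among the 43 members found in both replicates' lists 6 held it (14.0%, 6.56 to 27.3), a share partly set by the choice, since the strongest members were in both lists.

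The 12 sites are shown to let the surroundings of the run be compared. Each is 40 bases of ce11, 5′ to 3′ on the strand that reads CGCTCCAC, which is in capitals.
K01G5.10/tasp-1 (chrIII:10759234-10759273, plus strand): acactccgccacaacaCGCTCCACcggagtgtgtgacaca
rpl-15/K11H12.8 (chrIV:654908-654947, plus strand): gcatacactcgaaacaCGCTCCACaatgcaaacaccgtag
rpl-18A/Y17G9B.5 (chrIV:4750101-4750140, minus strand): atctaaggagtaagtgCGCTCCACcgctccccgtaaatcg
ifet-1/rps-3A (chrIII:4475635-4475674, minus strand): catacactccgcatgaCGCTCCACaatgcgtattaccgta
prp-19/K10D2.5 (chrIII:5172659-5172698, minus strand): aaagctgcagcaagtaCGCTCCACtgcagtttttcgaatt
Y71H2AM.20/cox-6B (chrIII:2786021-2786060, minus strand): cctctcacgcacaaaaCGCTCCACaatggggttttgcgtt
sqv-3/vha-1 (chrIII:9780764-9780803, plus strand): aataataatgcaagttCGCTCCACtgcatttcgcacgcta
F54D5.9/dnj-13 (chrII:11545436-11545475, plus strand): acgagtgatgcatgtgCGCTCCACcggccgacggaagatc
rpl-12/lin-54 (chrIV:13240698-13240737, minus strand): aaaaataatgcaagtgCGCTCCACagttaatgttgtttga
ugt-12/T19H12.2 (chrV:4890131-4890170, plus strand): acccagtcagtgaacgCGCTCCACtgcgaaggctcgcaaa
trap-2/ile-2 (chrX:768287-768326, minus strand): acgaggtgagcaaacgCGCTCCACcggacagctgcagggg
ran-3/C26D10.3 (chrII:8325346-8325385, plus strand): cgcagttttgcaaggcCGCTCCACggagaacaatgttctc
The same bases followed the run at several sites. It was followed by AAT at 3 of the 12, by CGG at 3 and by TGC at 3, and TGCA stood within the 16 bases before it at 5. It lay on the coding strand of the nearer gene at 8 of 12. The distance from the summit was 22 bp at the median, at most 70 bp, and up to 20 bp at 6 of them. Of the 12 sites 10 were in head-to-head gaps, and 4 of the 12 pairs held a cytosolic ribosomal protein gene (rpl-15, rpl-18A, rps-3A and rpl-12).

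The members with the run had signals from 78.4 to 751, and none of the 10 members with a signal under 50 held it. Their median was 169, against 109 for the 180 members without it, and 4 were among the 20 strongest. Because the run was picked from the strongest members, these differences are partly set by the choice. The strongest were K01G5.10/tasp-1 and rpl-15/K11H12.8. At ifet-1/rps-3A, inside the non-coding RNA gene F56F3.10, the signal was 227, with 75.3 in replicate 1 and 154 in replicate 2. At sqv-3/vha-1, next to a subunit gene of the vacuolar proton pump, it was 166 (71.3 and 92.7). The weakest was ran-3/C26D10.3, with 78.4 (33.1 and 49.7) and found in neither replicate's list.

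Of 16 motifs searched on both strands, 4 GC-rich ones had higher shares at members than beside them, and 4 AT-rich ones had lower shares. No test was made. The GC content of the 150 bp windows was 46.0% at the median for members (quartiles 41.3 and 51.3), 36.7% for the flanks and 33.3% for the middle of head-to-head gaps, but also 46.0% for single-strand promoter summits. The KLF/Sp motif (GGGCGG or GGGTGTG) was in 14.6% of member windows (10.3 to 20.3), 2.86% of flanks, 4.41% of mid-gap windows and 11.3% of single-strand windows. GCGCGC was in 10.9% (7.27 to 16.1), 0.781%, 3.89% and 8.64% in the same order. The E2F-like motif (TTTCCCGC, TTTGGCGC, TTTCGCGC, TTTGCCGC or GGCGGGAA) was in 8.33% (5.19 to 13.1), 1.56%, 3.49% and 5.50%. The EOR-1-like motif, named after a zinc-finger protein (CTGCGTCTC, or AGACGCAG, which lies within GAGACGCAG), was in 6.25% (3.61 to 10.6), 0.781%, 1.68% and 7.18%.

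The AT-rich motifs had lower shares at members. The GATA motif (AGATAA or TGATAA), which endodermal and epidermal GATA factors bind, was in 9.90% of member windows (6.43 to 14.9), 18.5% of flanks, 24.2% of mid-gap windows and 14.0% of single-strand windows. TATAAA was in 7.81% (4.79 to 12.5), 14.1%, 20.2% and 10.2%, and a run of 8 T in 4.69% (2.49 to 8.67), 11.5%, 18.4% and 5.27%. TTTTCAG, which resembles the acceptor site of trans-splicing, was in 11.5% (7.69 to 16.7), 22.1%, 14.1% and 7.86%. The intervals of members and flanks overlapped for TATAAA, for the GATA motif and for the run of T, and were apart for TTTTCAG. For CCAAT the shares were 28.1% (22.2 to 34.9), 21.1%, 25.2% and 23.5%, with overlapping intervals. These shares move with the GC content, whose part in them was not tested. The intervals of members and flanks also overlapped for the E-box CAGCTG, the E-box CACGTG, the GA repeat (GAGAGAGA), the heat shock element-like motif (GAANNTTC), the CRE-like motif (TGACGTCA or TGACGTAA) and the PHA-4-like motif. The B box core of RNA polymerase III genes, GTTCGANNC, was in 1 member window, 0.521%, as in the flanks.

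**Figure D5:**
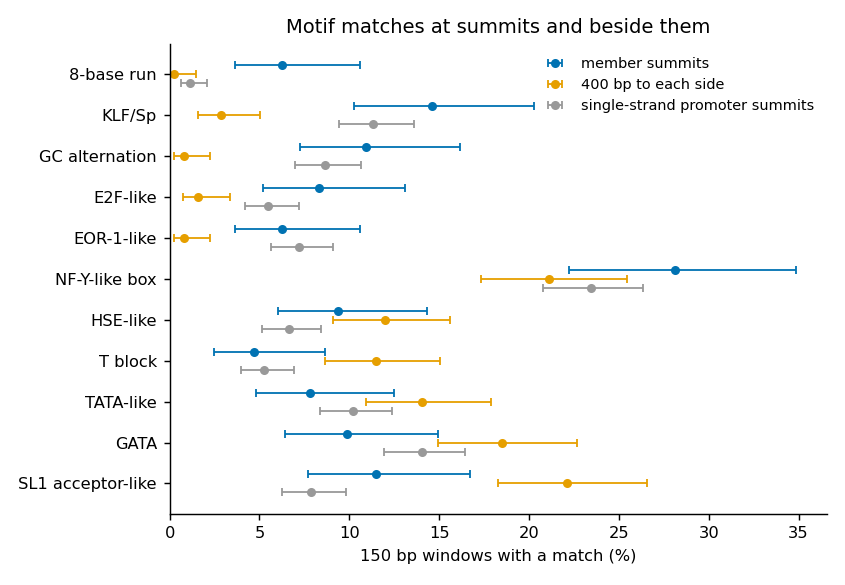
Share of 150 bp windows with a match (horizontal axis, %) for 10 searched motifs and for the 8-base run at the top, at member summits (blue), 400 bp to each side (orange) and at single-strand promoter summits (grey), with 95% Wilson intervals. The blue and orange intervals are apart for the upper GC-rich motifs. For the 8-base run 6.25% of member windows stand against 0.260% of flanks. That run was picked out after reading the windows of the strongest members, so its difference is partly set by the choice.

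Non-coding genes were near some members. An annotated ncRNA gene lay within 500 bp of 30 members (15.6%, 11.2 to 21.4) and of 111 single-strand summits (12.5%, 10.4 to 14.8). A microRNA gene lay that close to 3 members, at smn-1/klp-16 (signal 164), Y105E8A.14/ekl-4 (113) and eef-1A.1/rfc-4 (79.3). No lincRNA gene lay within 500 bp of any of the 192, which allows a share of up to 1.56% by the limit of 3 counts and 1.96% by the Wilson interval.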

How the data were processed

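The data are 7 deposited peak lists of 2 biological replicates of 1 group, on assembly ce11 per the labels. The deposited signal is the peak caller's value relative to a control, per the text deposited with the samples. The score that the authors deposited rescales the irreproducible discovery rate (IDR) to whole numbers, 830 at lowest, and the ranked lists give the deposited −log10 of the global IDR. For the peak caller, the aligner and the IDR threshold, the sources used here give no name or value. The highest global IDR among the peaks of the list of both replicates was 0.01. No list is scaled to another.

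Summits of the list of both replicates were placed against 29314 annotated 5′ ends (Ensembl release 115, WBcel235), with gene symbols and products from RefSeq. Shares have 95% Wilson intervals for counting error alone. Summits close together are not independent, and 2 replicates of 1 group give no test between conditions. Tests were two-sided exact binomial tests and 1 Fisher exact test, at a threshold of 0.05. Only the binomial test of both-strand windows against the genome was tried on simulated summits, which were placed independently of each other. Motifs were searched in windows of 150 bp. Genes named were those at the 12 strongest members, at the 8 strongest replicated head-to-head members, at 4 pairs with the most summits and up to 4 per gene list, and others where a count or an exception required it. Alternatives were the lists of single replicates, the conservative list, stronger peaks, other windows, 5′ ends, margins and overlaps. Members, lists and tests were chosen with earlier results of these data known. Tests ran in scipy 1.17.1 under Python 3.11.15, tables in pandas 2.3.3 and plots in matplotlib 3.10.9.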

Additional observations from a re-analysis of the deposited data

How the results depend on the processing

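Both tests of summit density kept their direction and their side of the threshold under every alternative run: the fold over the genome was 2.91 to 5.06 and that among promoter bases 1.61 to 2.66. With each replicate left out in turn, that is with the other's own list, the folds were 3.60 to 4.06 and 2.08 to 2.37, the share in head-to-head gaps 59.1% to 71.0%, the median signal 71.5 to 87.9 on the lists' own scales, the median distance to the nearer 5′ end 146 to 209 bp and the share of head-to-head gaps with a member 1.56% to 3.41%. That share also moved to 3.77% in the conservative list, 2.53% with the stronger 50% of peaks, 3.89% at an IDR of 0.005 and 3.21% with windows of 500 bp upstream and 100 bp downstream, all of which leave fewer members. The median signal was 118 in the conservative list and 119 at an IDR of 0.005. The share of members in both replicates' lists was 44.1% among the stronger 50% of peaks and 17.1% without repeated 31-base stretches, a setting chosen after seeing the data. The smaller windows put 87.2% of members in head-to-head gaps, with a median distance of 113 bp, and the outermost 5′ ends put 73.8% there. In windows of 300 bp the ratio of members to flanks was 0.85 for the run of T and 0.98 for CCAAT, and median GC was 47.5% in windows of 100 bp and 41.3% in windows of 300 bp; the causes of these shifts were not tested. The other 85 of 106 values stayed within the interval, or on the side of the threshold, of the reported one. No paired analysis was possible because there is 1 group. The lists hold no counts, so what read depth limits is unknown.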

Other observations

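Shorter runs that overlap those shown with the windows were counted too, after the values were seen. CGCTCC, the first part of the 8-base run, was in 28 of 192 member windows (14.6%), 2.34% of flanks, 6.40% of single-strand windows and 4.17% of mid-gap windows. ACGCAG, which lies within the EOR-1-like motif, was in 30 of 192 (15.6%), 3.13%, 13.0% and 4.89%. Among the 43 members in both replicates' lists the counts were 12 (27.9%) and 8 (18.6%). The 8-base run occurs 1697 times in the nuclear genome.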
